A study of Mus musculus with 12 samples.

Results

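The circadian clock genes examined here are 10 mouse genes, Per1, Per2, Per3, Cry1, Cry2, Clock, Arntl, Nr1d1, Nr1d2 and Dbp, out of 21887 protein-coding genes in the RefSeq gene table. They were followed in peak lists from chromatin immunoprecipitation and sequencing (ChIP-seq) with a pan-Kcr antibody, which binds crotonylated lysine, an acyl mark carried by histones and other proteins. The learning list came from dorsal hippocampus of C57BL/6J mice after training in spatial object recognition, a test of memory for object places, and the homecage list from dorsal hippocampus of C57BL/6J mice that stayed in the home cage. Each condition has 1 antibody library and no drug is named for either, whereas the crotonate, saline and input libraries of the series were not analysed here. The labels used here give no age, no time of day, no interval between training and dissection, and no number of animals per library. The set is a group of genes of the circadian clock. Its lead gene, Per1, was chosen by the width of a homecage peak already seen in these lists. That width and the absence of a learning peak at Per1 are therefore descriptions. With 1 library per condition there is no replicate error, no test was made between conditions, and every value below describes these 2 lists.

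The molecular clock is a feedback loop in which the transcription factors CLOCK and ARNTL (also called BMAL1) pair and activate genes through short DNA motifs named E-boxes. Among their targets are the Period and Cryptochrome genes, whose proteins return to the nucleus and repress CLOCK and ARNTL. The nuclear receptors NR1D1 and NR1D2 (REV-ERB alpha and beta) repress Arntl, and DBP drives output genes through D-box motifs. The loop runs in most tissues, the hippocampus included, and Per1 is also induced in neurons by activity through the cAMP pathway.

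For each gene, all peaks that touched the gene body or the 5 kb on either side were collected. Peak width is the only size in the files, and the read depth is unknown. The homecage list has 331236 peaks on chromosomes 1 to 19, X and Y and the learning list 16002, so a gene without a learning peak may fall below the reach of that list. Hippocampal tissue mixes many cell types, and a mark in fewer cells cannot be told apart from less of it per cell. Peak presence at defining genes says nothing of expression. A learning peak was present at 3 of 4 neuronal genes, whose median length is 344610 bp, at 2 of 3 excitatory neuron genes and at 1 of 3 genes each for astrocytes, oligodendrocytes and microglia, against 30.9% of all protein-coding genes, whose median length is 17169 bp.

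All 10 clock genes had homecage peaks, 94 in total, and 6 of the 10 had learning peaks, 8 in total. The genes with a learning peak were Per3, Cry1, Cry2, Clock, Nr1d1 and Dbp, and those without were Per1, Per2, Arntl and Nr1d2. Over all protein-coding genes, 90.5% had a homecage peak by the same rule and 30.9% a learning peak. Of the 94 homecage peaks 79 touched a gene body, as did 6 of the 8 learning peaks. With the flanks left out, 5 of 10 clock genes kept a learning peak, Cry2 being the one lost, against 24.8% of all genes. Long windows hold more peaks, and the clock genes were long, with a median body of 39213 bp against 17169 bp for all protein-coding genes. Counted per 10 kb of window, the pooled density was 1.65 homecage and 0.141 learning peaks at the clock genes and 1.37 and 0.0854 at all protein-coding genes. The learning value rested on Dbp: without it, the density at the other 9 genes was 1.57 homecage and 0.0903 learning peaks per 10 kb.

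**Figure D1:**
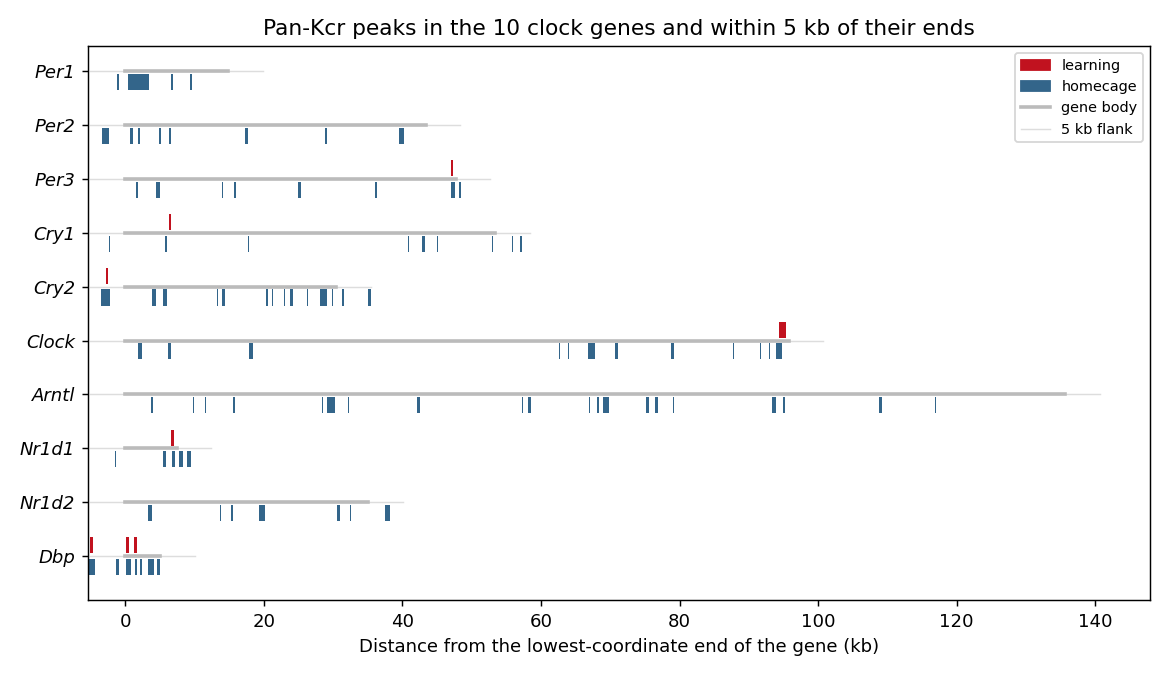
Position of every pan-Kcr peak in the 10 clock genes and their 5 kb flanks, in kb from the end of the gene with the lowest coordinate (grey: gene body; red: learning; blue: homecage). All 94 homecage and 8 learning peaks are drawn to scale, and Per1, Per2, Arntl and Nr1d2 carry blue bars only.

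The learning peaks at clock genes mostly lay on homecage peaks. Of the 8, 7 overlapped a homecage peak by at least 1 bp (87.5%, exact 95% Clopper-Pearson interval 47.3 to 99.7%, counting error only), compared with 48.1% of the 9291 learning peaks in the windows of all protein-coding genes, so the interval just includes the overall share. At least 1 such overlap was present at 5 of the 10 clock genes and at 18.4% of all genes. The exception was Cry1, where the learning and homecage peaks lay 357 bp apart. Of the 94 homecage peaks, 7 had a learning partner (7.45%, interval 3.05 to 14.7%), against 2.77% in all gene windows. Dbp alone held 3 of these 7, and the interval treats peaks of 1 gene as independent. When the overlap had to reach 50% of each peak, 2 of the 8 learning peaks remained (25%, against 16.7% in all gene windows). At Cry2 and at the most upstream Dbp peak the learning peak lay wholly inside a wider homecage peak, which this rule does not count.

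Per1, a Period gene whose product represses CLOCK and ARNTL, lies on chromosome 11 from 69095108 to 69109965 on the plus strand of GRCm38. Its homecage peaks were 212, 2944, 295 and 291 bp wide, in order along the gene, and it had no learning peak. The wide peak spanned 69095595 to 69098538, and the other 3 lay below the median width of homecage peaks in gene windows, 354 bp. Only 104 homecage peaks (0.0314% of the list) were at least 2944 bp wide, which is 8.39 times the list's median of 351 bp. A homecage peak that wide was present in the window of 59 genes, 0.27% of all protein-coding genes.

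The wide Per1 peak did not cover a listed start of transcription. RefSeq lists 2 Per1 starts with promoter sequence, at 69098949 and 1203 bp further downstream, while the annotated gene body begins 3841 bp before the first of them. The peak extended from position -3354 to position -411 relative to that first start, so it lay within the annotated gene body and upstream of both listed starts. The annotated 5' end has no promoter entry and is not counted as a start here. The next homecage peak on the downstream side began 2844 bp past the start. The 250 bases before the start, on the plus strand at chr11:69098699-69098948, are shown because they lie between the wide peak and the start, with an E-box and the reverse of the AGGTCA core in capitals:

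Per1: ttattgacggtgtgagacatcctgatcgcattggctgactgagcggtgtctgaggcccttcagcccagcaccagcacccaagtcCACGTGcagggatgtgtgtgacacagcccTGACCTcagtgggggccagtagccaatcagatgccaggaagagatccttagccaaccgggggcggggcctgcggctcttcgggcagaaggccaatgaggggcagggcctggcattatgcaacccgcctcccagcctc

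Wide homecage peaks usually had a learning peak on them, and Per1 was among the exceptions. Of the 104 homecage peaks at least as wide as that of Per1, 76 overlapped a learning peak (73.1%, interval 63.5 to 81.3%). Only 48 of the 104 lay in the window of a protein-coding gene, so this share is not one of peaks at genes. Of the 59 genes with such a peak in their window, 6, Per1 included, had no learning peak in the window. The nearest learning peak to the wide Per1 peak lay 6705 bp away, at 69088553 to 69088889 (337 bp). That peak was inside Vamp2, the gene of a synaptic vesicle fusion protein that ends 2726 bp before Per1 begins. Among the 5 genes most like Per1, with no learning peak in the window and a widest homecage peak nearest to 2944 bp among 13094 candidates, were Ifit1bl1 (2803 bp), Vmn1r138 (2738 bp), Mafk (2675 bp) and Stk40 (2655 bp). Likeness here is a match of 1 width in 1 library.

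**Figure D2:**
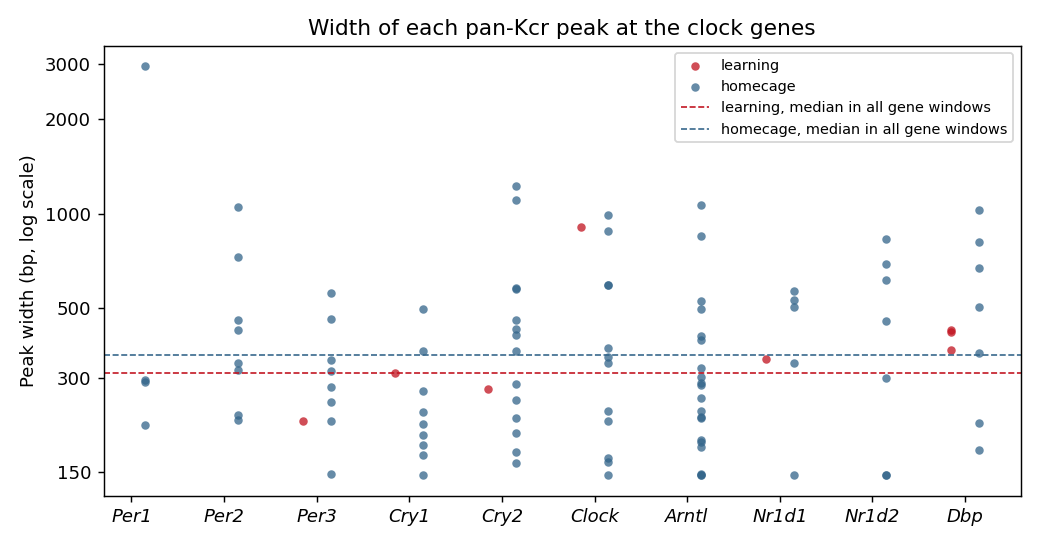
Width of each peak at the clock genes on a log axis in bp (red: learning; blue: homecage; dashed lines: median widths in the windows of all protein-coding genes, 312 and 354 bp). The Per1 peak of 2944 bp stands above all other peaks of the 10 genes, the next being 1229 bp, and the widest learning peak is that of Clock, 908 bp.

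At the remaining clock genes the widest homecage peaks were 1229 bp near Cry2, 1062 bp at Arntl, 1050 bp near Per2, 1028 bp near Dbp, 989 bp at Clock, 833 bp at Nr1d2, 569 bp near Nr1d1, 560 bp at Per3 and 497 bp at Cry1. A homecage peak of at least 500 bp was present at 9 of 10 clock genes, all but Cry1, and at 64.3% of all genes. With a minimum of 1000 bp, a limit chosen after the values were seen, it was 5 of 10 against 19.3%. Per1, the lead gene because of its wide homecage peak, is in both counts and passes either limit by that choice. The 1229, 1050 and 1028 bp peaks lay inside Mapk8ip1, Hes6 and Car11 and may belong to those genes, though Cry2 also had a body peak of 1108 bp. The clock genes were longer than most, and the part of gene length in these 2 counts was not tested. The learning peaks were 218 to 908 bp wide, with a median of 356 bp against 312 bp in all gene windows. The median homecage width was 317 bp at the clock genes and 354 bp in all gene windows, so the members' peaks as a whole were not wide.

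The positive arm of the loop was represented by Clock and Arntl, whose proteins pair to activate E-box genes. Clock (chromosome 5, 76209868 to 76305603, minus strand) had the widest learning peak of the set, 908 bp from 76304267 to 76305174. This peak ran from position -382 to position 525 around the most upstream listed start, and it was the only learning peak on a clock gene start. The homecage list had an 879 bp peak from 76303812 to 76304690 that overlapped it by 424 bp and lay shifted into the gene. The learning peak covered all 300 bases of the promoter windows of the 2 upstream starts, whereas the homecage peak covered 192 bases of 1 of them and none of the other. The learning peak also reaches into a long noncoding RNA gene, Gm7467. The remaining 11 homecage peaks of Clock, 147 to 989 bp wide, were spread over the gene body with no learning partner. The stretch before the most upstream start, chr5:76304793-76305042 on the minus strand, lies whole under the learning peak and wholly outside the homecage peaks, and none of the clock motifs searched below occurs in it:

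Clock: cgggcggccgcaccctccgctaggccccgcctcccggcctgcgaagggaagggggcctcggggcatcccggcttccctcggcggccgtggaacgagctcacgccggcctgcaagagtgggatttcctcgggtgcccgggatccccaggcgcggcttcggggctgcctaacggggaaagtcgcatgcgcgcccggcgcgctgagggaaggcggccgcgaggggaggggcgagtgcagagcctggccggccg

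Arntl (chromosome 7, 113178471 to 113314126, plus strand) is the longest of the clock genes, at 135656 bp, and had 20 homecage peaks and no learning peak. The nearest learning peak, 198 bp wide, lay 33.5 kb outside the gene. Of its homecage peaks 1 was over 1000 bp, the 1062 bp peak at 113207632 to 113208693, which began 121 bp past the second listed start. Other homecage peaks lay between the annotated 5' end, which has no promoter entry, and the first listed start, from position -25213 on. The last of them, 259 bp wide, ended 376 bp before the first start. The promoter windows of the listed starts thus lay in a gap between homecage peaks. The 250 bases before the first start, chr7:113207215-113207464 on the plus strand, fall inside that gap and carry repeated CCAAT boxes, which in this strand read ATTGG and are in capitals:

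Arntl: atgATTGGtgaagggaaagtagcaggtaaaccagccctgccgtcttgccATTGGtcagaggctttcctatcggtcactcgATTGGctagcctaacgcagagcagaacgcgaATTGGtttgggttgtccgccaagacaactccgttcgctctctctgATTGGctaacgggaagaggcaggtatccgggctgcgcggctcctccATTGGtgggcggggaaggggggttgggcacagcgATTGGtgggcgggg

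The 2 overlapping Arntl promoter windows together held 8 CCAAT boxes, and the first window alone held all 8. It was the only 1 of 21263 promoter windows of protein-coding genes with as many (0.0047%). This motif was picked after the sequence had been read. CCAAT boxes bind the NF-Y complex, a general activator of promoters.

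Among the Period genes, Per2 resembled Per1 in having no learning peak. Per2 (chromosome 1, 91415977 to 91459351) encodes a repressor partner of the Cryptochromes and had 8 homecage peaks, of 1050, 425, 319, 228, 334, 458, 221 and 729 bp in order of coordinate. The widest, at 91412622 to 91413671, lay outside Per2 and inside Hes6, the gene of a transcriptional regulator. The 729 bp peak, at 91455428 to 91456156, was the widest in the gene body itself and also touched the long noncoding RNA gene Gm35591. The nearest learning peak was 165 kb from the gene. RefSeq promoter sequence was matched for 9 of the 10 genes, all but Per2, so positions relative to a start are given for those 9.

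Per3 (chromosome 4, 150997018 to 151044707, minus strand), the third Period gene, had 1 learning peak of 218 bp and 8 homecage peaks of 148 to 560 bp. The learning peak, at 151044084 to 151044301, ran from position 364 to position 581 past the start. Most of it, 209 bp, was covered by a homecage peak of 461 bp that began at position 112. The widest homecage peak, 560 bp, lay at the other end of the gene and also touched Uts2, a neuropeptide gene whose body lies within that of Per3. The 250 bases before the start, chr4:151044666-151044915 on the minus strand, are shown because they hold 2 D-boxes, the motif bound by DBP, in capitals:

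Per3: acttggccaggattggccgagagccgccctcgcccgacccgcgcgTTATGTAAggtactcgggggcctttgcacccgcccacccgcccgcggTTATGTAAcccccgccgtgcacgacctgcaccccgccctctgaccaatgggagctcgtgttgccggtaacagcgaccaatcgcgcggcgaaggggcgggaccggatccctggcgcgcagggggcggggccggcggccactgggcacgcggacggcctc

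The Cryptochromes, which with the Period proteins repress CLOCK and ARNTL, differed in where their learning peaks lay. Cry1 (chromosome 10, 85131700 to 85185054, minus strand) had a learning peak of 310 bp at 85138037 to 85138346, far from the start, from position 46708 to position 47017 and toward the 3' end. It had 9 homecage peaks of 147 to 497 bp. The peak closest to the start, 198 bp wide, began 267 bp downstream. Its promoter sequence, chr10:85185055-85185304 on the minus strand, is printed for its E-box, in capitals, which sits at position -60:

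Cry1: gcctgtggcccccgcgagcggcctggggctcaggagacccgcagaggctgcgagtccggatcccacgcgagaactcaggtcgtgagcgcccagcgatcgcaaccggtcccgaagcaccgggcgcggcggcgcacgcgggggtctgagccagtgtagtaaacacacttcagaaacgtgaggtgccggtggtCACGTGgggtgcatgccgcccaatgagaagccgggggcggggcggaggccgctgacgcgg

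Cry2 (chromosome 2, 92403646 to 92434085, minus strand) had 14 homecage peaks and 1 learning peak. The learning peak (277 bp, 92400939 to 92401215) lay 2430 bp past the 3' end, inside the neighbouring gene Mapk8ip1, which encodes a scaffold protein of JNK signalling, and wholly under a 1229 bp homecage peak. No learning peak touched the body of Cry2. The body held 11 homecage peaks, 9 of which also touched the long noncoding RNA gene D930015M05Rik, whose extent lies within that of Cry2. The widest of the body, 1108 bp, lay from position 1265 to position 2372 past the start. Per 10 kb of window Cry2 had 3.46 homecage peaks, above 97.3% of all protein-coding genes.

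The nuclear receptor genes of the second loop also differed from each other. Nr1d1 (chromosome 11, 98767932 to 98775377, minus strand) had a learning peak of 345 bp at 98774613 to 98774957, from position 420 to position 764, and 275 bp of it were covered by a homecage peak of 503 bp. Its homecage peaks of 569 and 530 bp lay upstream of the start, in the long noncoding RNA gene Gm31862, and those of 335 and 147 bp lay downstream. The 3' end of Nr1d1 overlaps Thra, a thyroid hormone receptor gene, by 1075 bp, and the 147 bp peak lay on the Thra side. Nr1d2 (chromosome 14, 18204056 to 18239106, minus strand) had 7 homecage peaks of 147 to 833 bp and no learning peak within 92.1 kb. None of its homecage peaks lay within 2 kb of its start: the nearest ended 2468 bp upstream and began 2521 bp downstream.

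Dbp, the D-box activator of output genes, had the most learning peaks of the set. It is the shortest of the clock genes (chromosome 7, 45705100 to 45710203, 5104 bp, plus strand). Its 3 learning peaks were 427, 367 and 421 bp wide and its 7 homecage peaks 177 to 1028 bp. All 3 learning peaks overlapped a homecage peak. The 427 bp peak at 45700009 to 45700435 lay 4664 bp upstream of Dbp, inside Car11, a carbonic anhydrase-related gene, and wholly under a homecage peak of 1028 bp. The 367 bp peak, at 45705266 to 45705632, ran from position 19 to position 385 past the start, and 344 bp of it were covered by a homecage peak of 673 bp. The 421 bp peak, at 45706372 to 45706792, ran from position 1125 to position 1545 and shared 210 bp with a homecage peak of 216 bp. Per 10 kb of window Dbp had 4.63 homecage and 1.99 learning peaks, above 99.4% and 99.7% of all protein-coding genes. Without the Car11 peak, 2 learning peaks remained in the body.

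**Figure D3:**
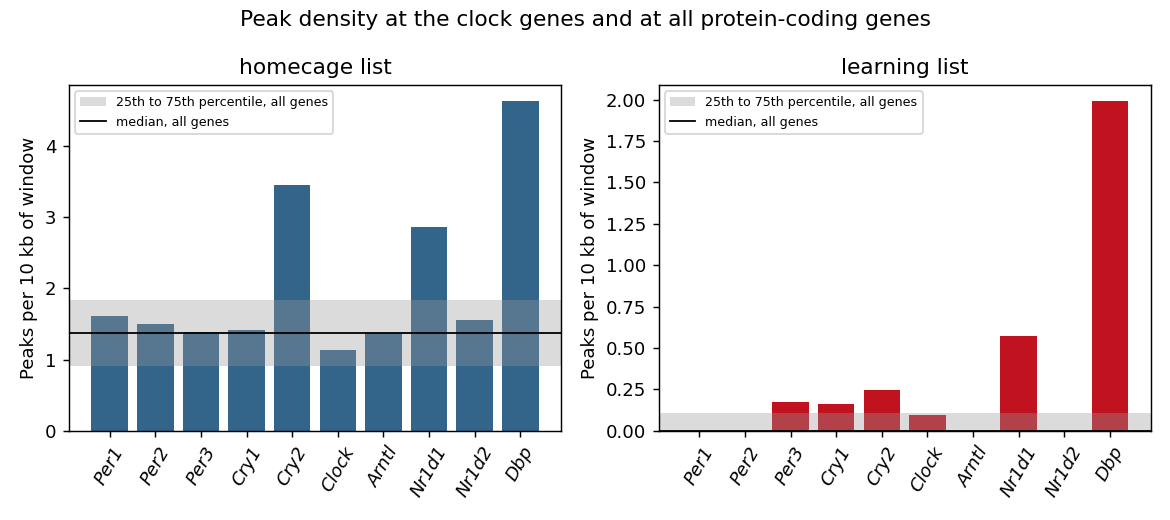
Peaks per 10 kb of gene body and flanks for each clock gene (bars; left, homecage; right, learning; the scales differ), with the median (line) and the 25th to 75th percentile (grey band) over all 21887 protein-coding genes. In the homecage list Dbp (4.63), Cry2 (3.46) and Nr1d1 (2.87) stand above the band, which ends at 1.84, and the other 7 genes fall inside it.

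Around the starts of transcription, homecage peaks lay beside the start more often than on it, at the clock genes and over all genes alike. A stretch of 1 kb takes in more peaks than a single base, so this order is not particular to the clock genes. A homecage peak within 1 kb downstream of a listed start was present at 7 of 9 clock genes, all but Per1 and Nr1d2, against 42.0% of the 17492 protein-coding genes with promoter entries. A homecage peak within 1 kb upstream was present at 7 of 9, all but Cry1 and Nr1d2, against 31.3%. On the start itself a homecage peak lay at 1 of 9 (Clock, at 1 of its 3 starts), against 14.7%, and in the 300-base promoter window (250 bases before and 50 after the start) at 2 of 9 (Clock and Dbp), against 21.3%. A start with homecage peaks within 1 kb on both sides and none on it, a pattern defined after the values were seen, occurred at 6 of 9, namely Per3, Cry2, Clock (by its most downstream start), Arntl, Nr1d1 and Dbp, against 6.93% of all genes. The empty stretch ran from 376 bp before to 167 bp past the first start at Arntl, and from 373 bp before to 192 bp past it at Nr1d1.

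Learning peaks within 1 kb downstream of a start were present at 4 of 9 clock genes, Per3, Clock, Nr1d1 and Dbp, against 14.0% of all genes, and each of these overlapped a homecage peak. Within 1 kb upstream, a learning peak was present at 1 of 9 (Clock), against 7.08%. On the start it was 1 of 9 (Clock) against 3.72%, and in the promoter window 2 of 9 (Clock and Dbp) against 5.61%. The Dbp peak entered its window by 31 bases, all of them past the start. The last 3 of these counts rest on 1 or 2 genes.

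**Figure D4:**
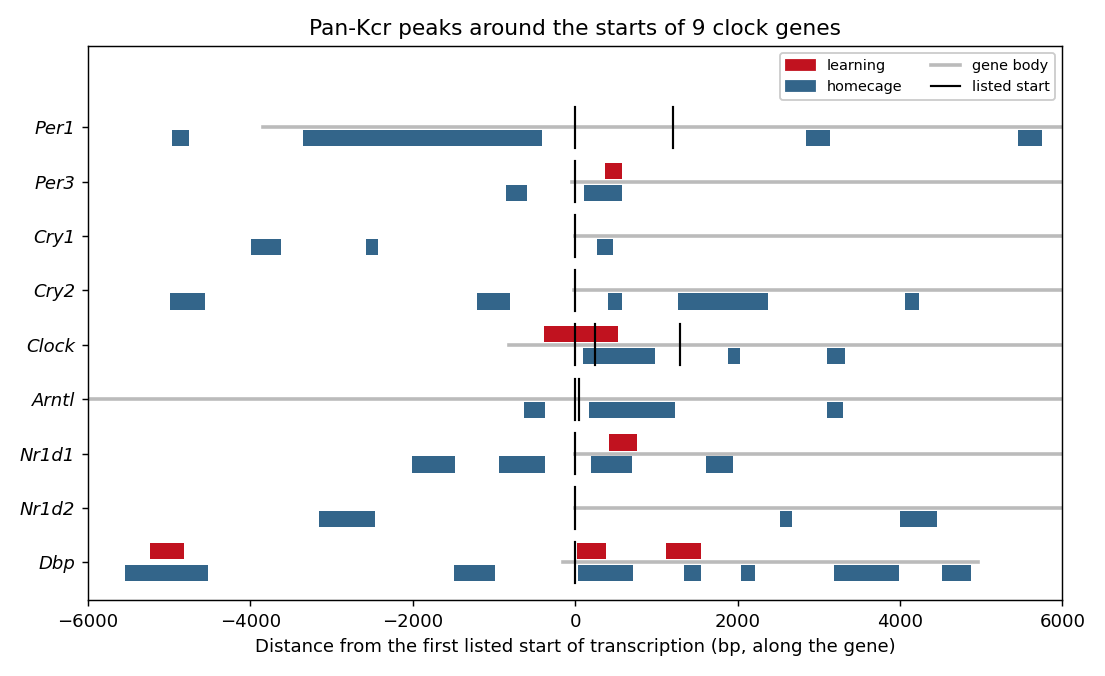
Peaks around the starts of the 9 clock genes with promoter entries, in bp along each gene from its most upstream listed start (black lines: listed starts; grey: gene body; red: learning; blue: homecage; only peaks of the gene and its 5 kb flanks are drawn). The wide Per1 peak ends at -411. Blue bars lie within 1 kb on both sides of the start with a gap over it at Per3, Cry2, Arntl, Nr1d1 and Dbp. At Per1, Cry1 and Nr1d2 the gap over the start extends beyond 1 kb on at least 1 side.

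Over all 21263 listed starts of protein-coding genes, both lists were highest 300 bp downstream of the start. At that distance 23.0% of starts were under a homecage peak and 7.87% under a learning peak. At the start itself the shares were 13.5% and 3.39%, and 5 kb away they were 5.93% and 0.259%. At the clock genes the highest homecage count was at 450 bp downstream. There 7 of 9 genes were under a homecage peak and 3 of 9 under a learning peak, against 20.3% and 5.98% of all starts. A clock gene was counted if any of its listed starts was covered, while these shares are of single starts. At 250 bp upstream none of the 9 was under a homecage peak, where 12.1% of all starts were. With only 9 genes, none is close to that share. Both distances were picked from the profile after it was seen.

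**Figure D5:**
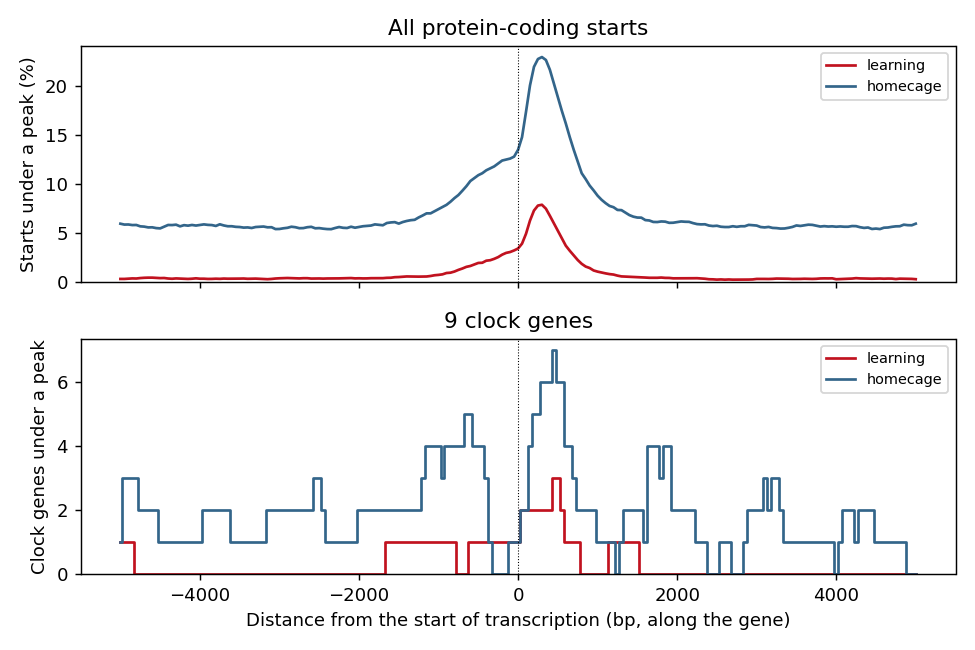
Share of all 21263 protein-coding starts under a peak (top, percent) and number of the 9 clock genes under a peak (bottom) against the distance from the start in bp along the gene, in steps of 50 bp (red: learning; blue: homecage). Both curves at the top are highest at 300 bp, and the homecage count at the bottom falls to 0 at -250 bp and reaches 7 at 450 bp.

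The clock's own motifs were searched in the 13 RefSeq promoter windows of 300 bases of the 9 genes, on both strands. The E-box CACGTG was found at Per1 (position -166) and Cry1 (position -60), in 2 of 13 windows, and in 7.84% of all promoter windows. The D-box TTATGTAA was found at Per3 only, at positions -205 and -158. It occurred in 0.894% of all windows, and 6 of 21263 held more than 1. The AGGTCA core of the sites that NR1D1 and NR1D2 bind was found in 4 of 13 windows, at Per1, Clock, Arntl and Nr1d2, and in 14.7% of all windows. The cAMP response element TGACGTCA was in none of the 13 windows and in 2.23% of all. A match is a description of the letters, and the windows are short. The median GC content was 64.7% in the members' windows and 56.3% in all windows, compared with 67.7% in the 1108 windows under a learning peak and 55.0% in the 16620 under no peak. The part of base composition in where peaks lay was not tested.

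Other genes of the pathway were counted in 3 lists by the same rule. Of 13 genes in the interlocking loops (13 with a homecage peak), 5 had a learning peak. Bhlhe40, a repressor of E-box genes, had the widest homecage peak of that list, 2484 bp at chromosome 6, 108658699 to 108661182, and unlike the wide peak at Per1 it overlapped a learning peak, of 397 bp. Rora, an activator of Arntl, had a homecage peak of 1368 bp and 99 homecage peaks in all, with no learning peak. Arntl2, a paralogue of Arntl, had a learning peak of 418 bp without a homecage partner. Of 12 clock kinases, ubiquitin ligases and a deubiquitinase (12 with a homecage peak), 9 had a learning peak. Fbxw11, a ligase component that recognises phosphorylated PER proteins, had a learning peak of 1162 bp across its start, from position -562 to position 599, wider than that of Clock. Prkaa2, a catalytic subunit of AMP-activated kinase, had a learning peak of 576 bp on a homecage peak of 2232 bp, and Usp2, a deubiquitinase, had a homecage peak of 1735 bp across its start. Of 16 chromatin cofactors (15 with a homecage peak, all but Nono on chromosome X), 11 had a learning peak. The widest were at Crebbp (865 bp, with no homecage partner) and Sfpq (723 bp). The widest homecage peaks there were at Kat2b (1784 bp, shared) and Ep300 (1693 bp, not shared). Against the background of 30.9%, the share with a learning peak was thus near it in the loop genes and above it in the other lists, whose median gene bodies were 37883.5 and 49348 bp, longer than the overall 17169 bp.

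Peaks just inside and outside the 5 kb limit show how the rule set these counts. The farthest learning peak kept was the one near Dbp, 4664 bp from the gene, and the nearest one not kept was 154 bp wide and lay 5767 bp from Cry2. At Per1, the nearest learning peak lay 6218 bp from the gene. Of the member peaks, 2 of 8 learning and 9 of 94 homecage peaks lay in the body of another protein-coding gene, and they may belong to that gene.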

How the data were processed

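Each processed file is a list of called peaks from 1 pan-Kcr ChIP-seq library, deposited with 4 columns and no other unit than positions in bp. The peak names in the deposited files state broad peaks at a p-value threshold of 0.01. Trimmomatic, BWA, MACS2 and mm10 are named, without versions, in the submitters' processing notes. The use of the input libraries as control and the read filters are not given in the sources used here. Per the labels' protocols, about 20 mg of tissue was fixed in 1% formaldehyde and sheared to 200 to 500 bp. The files carry no read counts or strengths, so peaks cannot be ranked by enrichment.

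Positions are 1-based on GRCm38 (mm10). Gene extents, without exons, and promoter sequences with strand came from RefSeq tables of GRCm38.p6, and all symbols of the 10 members and 3 pathway lists matched. Peaks on chromosomes 1 to 19, X and Y were used, an overlap of at least 1 bp counted as shared, and percentiles are over all 21887 protein-coding genes. The overlap functions were tested on simulated lists. Members and lists were chosen with earlier results of these data known. Of each pathway list, the 2 genes with the widest peak per library were named, and of the 5 genes nearest to Per1 in widest homecage peak, 1 is not reported here. The scripts ran in Python 3.11.15 with scipy 1.17.1, pandas 2.3.3 and numpy 2.4.6, and figures were drawn with matplotlib 3.10.9.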

Additional observations from a re-analysis of the deposited data

How the results depend on the processing

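No paired analysis was possible because learning and homecage were represented by a single antibody library each, which also leaves no replicate to omit. Of 23 recomputed values, 16 stayed within 1.5 times the reported count or width, or within the counting interval of the reported share, and 7 moved beyond it. That interval ends at 99.7%, so any share of 100% counted as moved, as for 1 of 1, 4 of 4 and 8 of 8 peaks. With peaks of at least 500 bp, 1 clock gene (Clock) kept a learning peak, against 7.25% of all genes, and its peak was shared (100%, 1 of 1). The homecage list was also shortened to its 16002 widest peaks, of at least 884 bp. Then 6 clock genes kept a homecage peak (Per1, Per2, Cry2, Clock, Arntl and Dbp), against 27.0% of all genes. Per1 is among these 6 by the width for which it was chosen. In that setting 25% of the learning peaks were shared, against 15.1% in all gene windows. The share was also 25% when the overlap had to reach 50% of each peak, 100% within 1 kb of the 5' ends (4 of 4, against 70.4% of learning peaks near all listed starts) and 100% with homecage peaks up to 500 bp away (8 of 8, against 60.9% in all gene windows). The learning peak added by the 500 bp allowance was that of Cry1, 357 bp from a homecage peak. The cause of the other shifts was not tested. Merging peaks less than 1 kb apart left the Per1 width at 2944 bp. Leaving out peaks inside other protein-coding genes, an alternative chosen after seeing the data, left 5 genes with a learning peak and 83.3% of peaks shared. The matching shares over all protein-coding genes are not given for this setting. The backgrounds of 30.9% and 48.1% keep such peaks, so these 2 values cannot be set against them.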
